A study of Mus musculus with 4 samples.

Results

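In mouse quadriceps, the large muscle of the thigh, 6 long noncoding RNAs are described, out of 55573 gene IDs counted in each library. They were taken by gene symbol. Malat1 and Neat1 are retained in the nucleus, Meg3, Rian and Mirg are imprinted RNAs of the Dlk1-Dio3 domain, and H19 is the imprinted RNA of the H19-Igf2 domain. RNA was sequenced in 2 libraries from the Vdr knockout strain B6.129S4-Vdrtm1Mbd/J (vdr-/-) and 2 libraries from WT C57BL/6J mice, all at 7 weeks of age. The knockout strain carries a germline deletion in Vdr, the gene of the vitamin D receptor, a hormone-bound transcription factor, so the loss is not restricted to muscle. All mice were weaned at 21 days onto regular chow, and the labels do not say whether the WT mice were littermates of the knockouts. The comparison asks how RNA levels in muscle differ without the receptor.

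Imprinted genes are transcribed mainly from the allele of 1 parent. In the Dlk1-Dio3 domain the maternal chromosome gives the long RNAs Meg3, Rian and Mirg, which lie in this order on 1 strand, while the paternal chromosome gives Dlk1, Rtl1 and Dio3. Rian is known as a host of C/D box small nucleolar RNAs and Mirg as a host of a large microRNA cluster. H19 is made from the maternal chromosome, shares enhancers with the paternally expressed growth factor gene Igf2, carries miR-675 in an exon, and is abundant in embryonic muscle. Malat1 gathers in nuclear speckles, where splicing factors are stored. The long isoform of Neat1 is the scaffold of paraspeckles, nuclear bodies that hold RNA-binding proteins.

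Malat1 and Neat1 end in an unusual way, and their ends are shown because these RNAs are neighbours on chromosome 19 and are set against each other below. Neither Malat1 nor the long Neat1 isoform is closed by ordinary polyadenylation. An A-rich stretch folds back onto a pair of U-rich stretches into a triple helix, which protects the end of the RNA. In the GENCODE M21 transcripts on GRCm38 the stretch reads as follows, 5′ to 3′ on the minus strand, with both U-rich runs (written with T) and the closing A-rich run in capitals.
Malat1, chr19:5795982-5796072: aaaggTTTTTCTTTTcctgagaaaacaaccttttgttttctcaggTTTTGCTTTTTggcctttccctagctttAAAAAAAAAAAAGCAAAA
Neat1, chr19:5824708-5824802: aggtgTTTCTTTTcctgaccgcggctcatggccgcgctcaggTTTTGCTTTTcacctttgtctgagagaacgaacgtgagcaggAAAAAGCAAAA
The run of letters was written after both ends had been read. Among 141767 annotated transcripts, 2 held the 3 runs in this order with gaps of 10 to 80 bases, the 2 printed. In Neat1 the stretch closes the annotated RNA, whereas in Malat1 the annotation runs on for 292 bases. The long Neat1 isoform has 20771 bases and the short one 3004 bases. The counts are per gene, so the paraspeckle-forming long isoform could not be told apart from the short one.

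The microRNAs carried by H19 and Mirg are shown because their host RNAs are what the counts measure. RefSeq (GRCm38.p6) gives 37 mature sequences for 20 of the 21 microRNA genes inside these RNAs on the same strand, 26 of them in Mirg, 6 in Rian, 3 in Meg3 and 2 in H19. Their seeds, bases 2 to 8 of the mature RNA, take 36 different forms. A single seed was shared, between miR-453 and miR-496a-5p of Mirg. Seeds are in capitals.
mmu-miR-675-5p (H19): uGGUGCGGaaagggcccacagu
mmu-miR-675-3p (H19): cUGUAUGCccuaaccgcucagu
mmu-miR-453 (Mirg): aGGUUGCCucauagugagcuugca
mmu-miR-496a-5p (Mirg): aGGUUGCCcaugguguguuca

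Of the RefSeq promoter windows (250 bases before to 50 after a start), those at the annotated starts of Malat1, Meg3 and Rian were searched on both strands, together with a Mirg window that lies inside the gene, at a start 5.22 kb downstream of the GENCODE one. A vitamin D receptor element, taken as a pair of hexamers (each of the form AGGTCA, or of the form GGTTCA, or of the form GGGTGA) in the same direction 3 bases apart, matched in none of the 4 windows and in 0.0426% of all 32851 windows. No window was given for Neat1 or H19, so these were not searched. The single hexamer AGGTCA matched in none of the 4 windows, against 16.3% of all windows. A second Meg3 window, at a start 4.4 kb inside the gene, held it 1 time. The E-box CANNTG matched 1 time in each of the Malat1, Rian and inner Mirg windows and in 72.3% of all windows. The Meg3 window, printed because the 3 RNAs of its domain are read below against one another, held the TATA box TATAAA on both strands in overlapping positions, as did 13.6% of all windows on at least 1 strand. It also held the cyclic AMP element TGACGTCA, present in 1.79% of all windows and searched for after this sequence had been read. Both are in capitals.
Meg3, chr12:109540746-109541045, plus strand: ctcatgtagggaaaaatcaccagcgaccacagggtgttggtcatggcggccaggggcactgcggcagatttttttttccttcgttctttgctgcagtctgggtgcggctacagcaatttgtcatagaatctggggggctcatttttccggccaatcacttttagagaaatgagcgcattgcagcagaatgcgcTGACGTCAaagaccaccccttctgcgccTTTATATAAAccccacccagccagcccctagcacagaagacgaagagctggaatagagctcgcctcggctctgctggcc

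The knockout libraries held 21.34 M and 11.21 M counts in all, and the WT libraries 10.79 M and 13.03 M. Between 43.3% and 47.8% of the counts of each library came from mitochondrial genes, and shares of all counts below include these. Vdr itself had 5 and 1 counts in the knockout libraries and 5 and 0 counts in the WT libraries, and its RNA is too rare here to check the labels. The groups differed in sex-linked RNAs. Xist, the RNA of the inactive X chromosome, had 0 and 3 counts in the knockout libraries and 1929 and 2778 counts in the WT libraries. The Y-linked gene Ddx3y had 1594 and 739 counts in the knockout libraries and 50 and 0 counts in the WT libraries. The labels give no sex, and genotype and sex cannot be told apart in any result below. Of 10 fat cell markers 8 were called higher in the knockout, with summed levels of 3995 to 4449 CPM (the count scaled to a common library size after TMM normalisation) in the knockout libraries and 1053 to 1264 CPM in the WT libraries, none of them at 0. Of 5 red blood cell markers 3 were called higher, with summed levels of 389 to 549 CPM in the knockout libraries and 243 to 266 CPM in the WT libraries. Of 10 muscle fibre markers none was called, and 2 had a positive and 8 a negative log2 fold change (median −0.07). Their summed levels were 98829 to 101075 CPM in the knockout libraries and 104855 to 113752 CPM in the WT libraries. Ttn moved most, with 16101 and 17344 CPM in the knockout libraries and 23784 and 23157 CPM in the WT libraries.

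Neat1 was the only RNA of this set called lower in the knockout. H19 had the lowest level relative to WT without passing the test (log2 fold change −1.76, edgeR adjusted p = 0.0635). Rian was also lower without passing it (−0.61, edgeR adjusted p = 0.0735). All 6 RNAs passed the filter on low counts. With edgeR's quasi-likelihood test, adjusted over the 13076 genes tested and called at an adjusted p below 0.05, 1 of the 6 was called lower and none higher, against 0.558% of all tested genes called lower, 1.91% called higher and 2.47% called in either direction. Among the 488 long noncoding RNA genes tested, 1.43% were called lower. In 4 of the 6 (Malat1, Neat1, Rian and H19) both knockout libraries lay below both WT libraries, as in 21.7% of all tested genes. The fitted log2 fold change was negative for 6 of 6, with a median of −0.54. For all genes tested the median was −0.00035, and 6543 of 13076 were negative. For the 488 long noncoding RNA genes it was −0.08, and 281 were negative. Among the 6 RNAs the fold change was negative for 4 of 6 without knockout replicate 1 (median −0.29) and without WT replicate 2 (median −0.26). The 3 RNAs of the Dlk1-Dio3 domain share a locus and a parental allele and are not independent of one another. The labels do not say that the libraries came from separate animals, so p-values speak only of the spread among these 4 libraries, and that spread may be technical. In whole muscle, fewer cells that make an RNA and less of it per cell cannot be told apart.

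**Figure D1:**
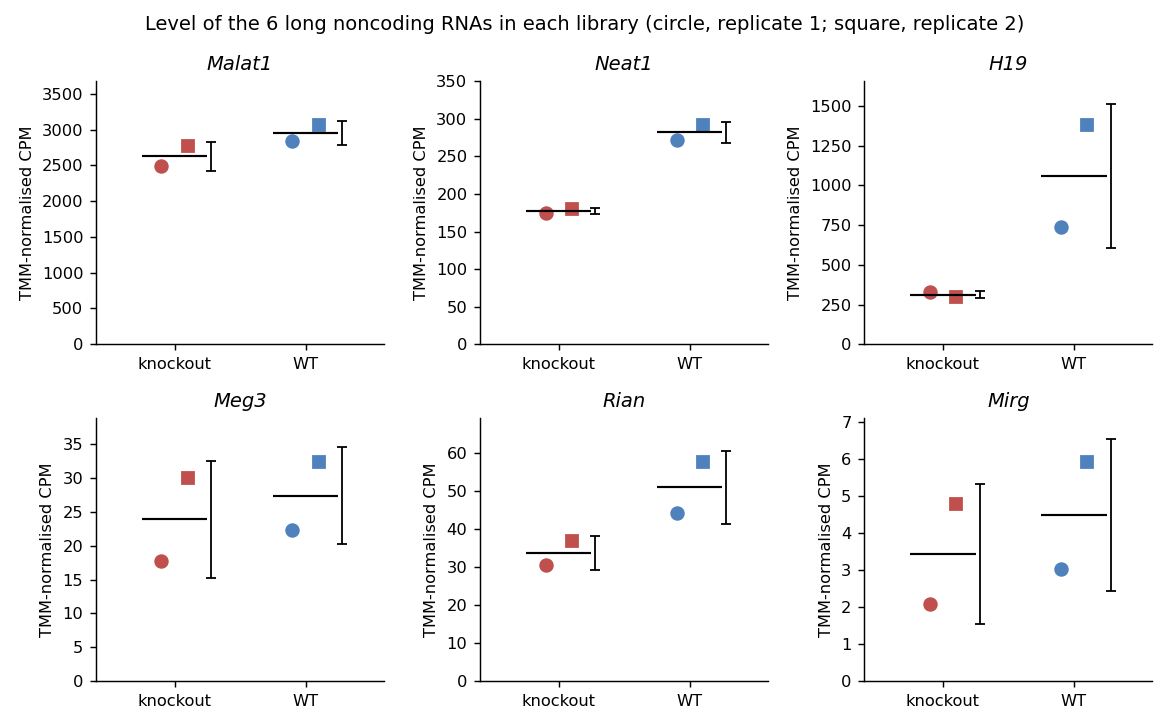
Level of each RNA in TMM-normalised CPM in the 2 knockout (red, left) and 2 WT (blue, right) libraries, with the group mean as a line and the SD as a bar beside it (n = 2). Both knockout points lie below both WT points for Malat1, Neat1, H19 and Rian, and the groups overlap for Meg3 and Mirg.

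Malat1 (ENSMUSG00000092341, chr19:5795690-5802672, minus strand, annotated as 1 merged exon) took between 0.245% and 0.301% of all counts in every library. It had 52307 and 32471 counts in the knockout libraries and 29908 and 39287 counts in the WT libraries. These correspond to 2486 and 2769 CPM in the knockout libraries, against 2834 and 3066 CPM in the WT libraries. The knockout libraries were the lower pair, and the gap between the nearest libraries of the groups was smaller than the gap within either group. Malat1 averaged 2627 ± 200 CPM in the knockout and 2950 ± 164 CPM in WT (SD, n = 2 each), a log2 fold change of −0.17 ± 0.14 (SE, 95% interval −0.47 to 0.14). The edgeR quasi-likelihood test did not call it (adjusted p = 0.666).

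Neat1 (ENSMUSG00000092274, chr19:5824708-5845478, minus strand) lies beside Malat1 and is read from the same strand. It had 3671 and 2108 counts in the knockout libraries and 2873 and 3743 counts in the WT libraries. Scaled for depth, these were 174.5 and 179.7 CPM in the knockout libraries, against 272.3 and 292.1 CPM in the WT libraries. The knockout libraries lay close together and well below both WT libraries. Neat1 averaged 177 ± 3.71 CPM in the knockout and 282 ± 14.0 CPM in WT (SD, n = 2 each), which is 37.2% lower. The log2 fold change was −0.67 ± 0.13 (SE, 95% interval −0.95 to −0.39; edgeR quasi-likelihood test, adjusted p = 0.0180). With 1 library left out the fold change lay between −0.72 and −0.62, and the call was kept only without WT replicate 1. It was lost without knockout replicate 1 (adjusted p = 0.125), knockout replicate 2 (adjusted p = 0.0617) or WT replicate 2 (adjusted p = 0.0603). Fat cell markers and sex-linked RNAs moved with the groups as given above, and their part in the Neat1 difference was not tested.

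The ratio of these neighbours within a library does not depend on depth or scaling. Per 100 counts of Malat1 there were 7.02 and 6.49 counts of Neat1 in the knockout libraries, against 9.61 and 9.53 in the WT libraries. The WT ratios almost coincided, and both knockout ratios were lower. The mean ratio in the knockout was 0.706 of that in WT. With 2 libraries against 2, a two-sided exact permutation test cannot give a p below 0.333, and no other test of the ratio was run. Within 500 kb of the pair 49 further genes were tested and none was called, with a median log2 fold change of 0.04, a range from −1.02 to 0.84 and a smallest adjusted p of 0.127 (edgeR). On the Neat1 side Frmd8 averaged 5.14 ± 1.42 CPM in the knockout and 4.58 ± 0.58 CPM in WT (SD, n = 2 each).

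**Figure D2:**
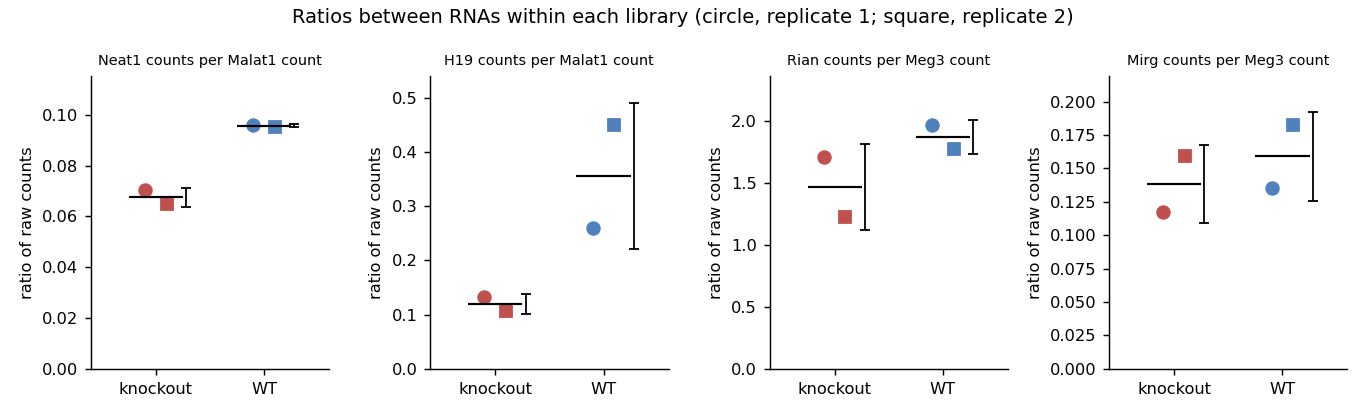
Ratios of raw counts between RNAs within each library, 2 knockout (red, left) and 2 WT (blue, right), with group mean and SD (n = 2). Neat1 per Malat1, H19 per Malat1 and Rian per Meg3 are lower in both knockout libraries than in both WT libraries, and Mirg per Meg3 overlaps.

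The genes of proteins that gather on these RNAs gave no calls. Of 26 paraspeckle protein genes, all tested, none was called in either direction, and their median log2 fold change was −0.02. The 3 with the smallest p were Ewsr1, an RNA-binding FET protein, Rbmx, an X-linked splicing regulator, and Rbm7, a subunit of a nuclear exosome adaptor. Ewsr1 had 68.4 and 69.8 CPM in the knockout libraries and 53.5 and 54.9 CPM in the WT libraries, a log2 fold change of 0.35 ± 0.12 (SE; edgeR adjusted p = 0.187). Rbmx averaged 15.4 ± 3.63 CPM in the knockout and 10.97 ± 1.71 CPM in WT, and Rbm7 averaged 17.1 ± 1.82 CPM in the knockout and 14.2 ± 1.74 CPM in WT (SD, n = 2 each). Each of these 3 had both knockout libraries above both WT libraries, as did 23.0% of all tested genes. They were picked by smallest p, which favours such a pattern, so the share over all genes is no measure for them. Of the 26 genes 12 had a positive and 14 a negative log2 fold change.

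Among 30 nuclear speckle and splicing factor genes, the company of Malat1, none was called and the median log2 fold change was 0.02. Ptbp1, the polypyrimidine tract-binding repressor of exons, averaged 22.5 ± 1.00 CPM in the knockout and 16.003 ± 2.53 CPM in WT (SD, n = 2 each; edgeR adjusted p = 0.145). Rnps1, which joins exon junction complexes, averaged 24.9 ± 0.83 CPM in the knockout and 19.6 ± 1.01 CPM in WT. Srsf5, an SR protein, averaged 64.8 ± 5.19 CPM in the knockout and 52.4 ± 8.50 CPM in WT.

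Meg3 (ENSMUSG00000021268, chr12:109541001-109571726, plus strand), the first RNA of the Dlk1-Dio3 domain, had 374 and 352 counts in the knockout libraries and 236 and 416 counts in the WT libraries. Its levels were 17.8 and 30.0 CPM in the knockout libraries, against 22.4 and 32.5 CPM in the WT libraries. The libraries interleaved, with replicate 1 the lower of each group. Meg3 averaged 23.9 ± 8.65 CPM in the knockout and 27.4 ± 7.14 CPM in WT (SD, n = 2 each). The log2 fold change was −0.22 ± 0.31 (SE, 95% interval −1.01 to 0.58; edgeR adjusted p = 0.844). Its sign turned without knockout replicate 1 (0.12) and without WT replicate 2 (0.08), so no direction is given for Meg3. The knockout libraries differed 1.69 times, a gap reached by 1.46% of the 3960 genes within 2-fold of its level, Meg3 itself included.

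Rian (ENSMUSG00000097451, chr12:109603940-109661716, plus strand), the small nucleolar RNA host downstream of Meg3, had 640 and 431 counts in the knockout libraries and 465 and 739 counts in the WT libraries. It stood at 30.4 and 36.8 CPM in the knockout libraries, against 44.1 and 57.7 CPM in the WT libraries. Both knockout libraries were lower, and the gap between the nearest libraries of the groups was narrower than that between the WT libraries. Rian averaged 33.6 ± 4.48 CPM in the knockout and 50.9 ± 9.62 CPM in WT (SD, n = 2 each), with a log2 fold change of −0.61 ± 0.16 (SE, 95% interval −0.95 to −0.26). The edgeR quasi-likelihood test gave an adjusted p of 0.0735 and did not call it. Without 1 library the fold change lay between −0.78 and −0.40, and it was called without knockout replicate 2 (adjusted p = 0.0479) and without WT replicate 1 (adjusted p = 0.00870). The lowest size, −0.40, was that without WT replicate 2.

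Mirg (ENSMUSG00000097391, chr12:109729764-109749460, plus strand), the microRNA host at the far end, was the rarest, with 44 and 56 counts in the knockout libraries and 32 and 76 counts in the WT libraries. Levels were 2.09 and 4.77 CPM in the knockout libraries, against 3.03 and 5.93 CPM in the WT libraries. As for Meg3, the groups overlapped and replicate 1 was the lower library of each. Mirg averaged 3.43 ± 1.90 CPM in the knockout and 4.48 ± 2.05 CPM in WT (SD, n = 2 each). The log2 fold change was −0.47 ± 0.46 (SE, 95% interval −1.55 to 0.60; edgeR adjusted p = 0.742), and its sign turned without knockout replicate 1 (0.07) and without WT replicate 2 (0.11). The libraries differed 2.28 times in the knockout and 1.96 times in WT. These gaps were reached by 1.62% and 4.07% of the 3958 genes within 2-fold of its level, Mirg itself included. Neither a fall nor a rise of Mirg was detectable over this spread.

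The 3 RNAs were also read against one another within a library. Per Meg3 count there were 1.71 and 1.22 Rian counts in the knockout libraries, against 1.97 and 1.78 in the WT libraries. The groups did not overlap, but the knockout libraries differed more from each other than the nearer one differed from WT. Mirg per Meg3 was 0.118 and 0.159 in the knockout libraries and 0.136 and 0.183 in the WT libraries, which overlapped. The protein-coding genes of the domain were hardly read at all in this tissue. Dlk1, a membrane regulator of differentiation, had 33 and 26 counts in the knockout libraries and 23 and 24 counts in the WT libraries. Rtl1, a retrotransposon-derived gene on the other strand between Meg3 and Rian, had 0 and 2 counts in the knockout libraries and 1 and 0 counts in the WT libraries, and Dio3, the thyroid hormone-inactivating deiodinase, had 6 and 0 counts in the knockout libraries and 2 and 3 counts in the WT libraries. Within 500 kb of the 3 RNAs 3 further genes passed the filter, Dlk1 and 2 without a known role, and none was called.

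H19 (ENSMUSG00000000031, chr7:142575529-142578143, minus strand) had 6924 and 3462 counts in the knockout libraries and 7795 and 17701 counts in the WT libraries. These were 329 and 295 CPM in the knockout libraries, against 739 and 1381 CPM in the WT libraries. The knockout libraries were close to each other and below both WT libraries, and the WT libraries stood far apart. H19 averaged 312 ± 24.0 CPM in the knockout and 1060 ± 454 CPM in WT (SD, n = 2 each), which is 70.6% lower. The log2 fold change was −1.76 ± 0.31 (SE, 95% interval −2.54 to −0.99), and the edgeR quasi-likelihood test, with an adjusted p of 0.0635, did not call it. The WT libraries differed 1.87 times, a gap reached by 3 of 85 genes within 2-fold of its level, H19 itself among the 3. The knockout libraries differed 1.11 times.

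The test of H19 turned on the spread between the WT libraries. Without WT replicate 1 its fold change was −2.14 and without WT replicate 2 it was −1.24, and both fits called it (edgeR adjusted p = 4.42e-09 and 0.000168), with the lone WT library assumed to vary like the knockout pair. Without knockout replicate 1 or 2 it was not called (edgeR adjusted p = 0.302 and 0.269). DESeq2 called it on all 4 libraries (log2 fold change −1.76, adjusted p = 0.00369), a test by which 0.714% of 11063 genes were called lower. Per 100 Malat1 counts there were 13.2 and 10.7 H19 counts in the knockout libraries, against 26.1 and 45.1 in the WT libraries, again with no overlap. Of 10 satellite cell and myoblast markers 9 were tested, of which 3 had a positive and 6 a negative log2 fold change. Only 1 was called, Mymk, the fusion protein myomaker. Mymk had 1 and 1 counts in the knockout libraries and 13 and 31 counts in the WT libraries. The summed level of that list was 37.7 to 54.8 CPM in the knockout libraries and 55.2 to 65.9 CPM in the WT libraries, with no marker at 0 in all 4 libraries. Of 6 tendon markers none was called and 6 had a negative log2 fold change, with summed levels of 313 to 452 CPM in the knockout libraries and 460 to 569 CPM in the WT libraries. Of 6 smooth muscle and pericyte markers none was called, and 3 had a positive and 3 a negative log2 fold change (median −0.03). They summed to 347 to 398 CPM in the knockout libraries and 452 to 474 CPM in the WT libraries. Much of that sum was Rgs5, with 246 and 215 CPM in the knockout libraries and 324 and 315 CPM in the WT libraries. Fibroblast, macrophage and Schwann cell markers gave no calls. The fibroblast list summed to 5624 to 5768 CPM in the knockout libraries and 5486 to 5887 CPM in the WT libraries. For macrophages the sums were 315 to 336 CPM in the knockout libraries and 268 to 313 CPM in the WT libraries. For Schwann cells and nerve they were 134 CPM in both knockout libraries and 120 to 130 CPM in the WT libraries. The part of these cell types, of fat and of sex in the H19 difference was not tested.

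**Figure D3:**
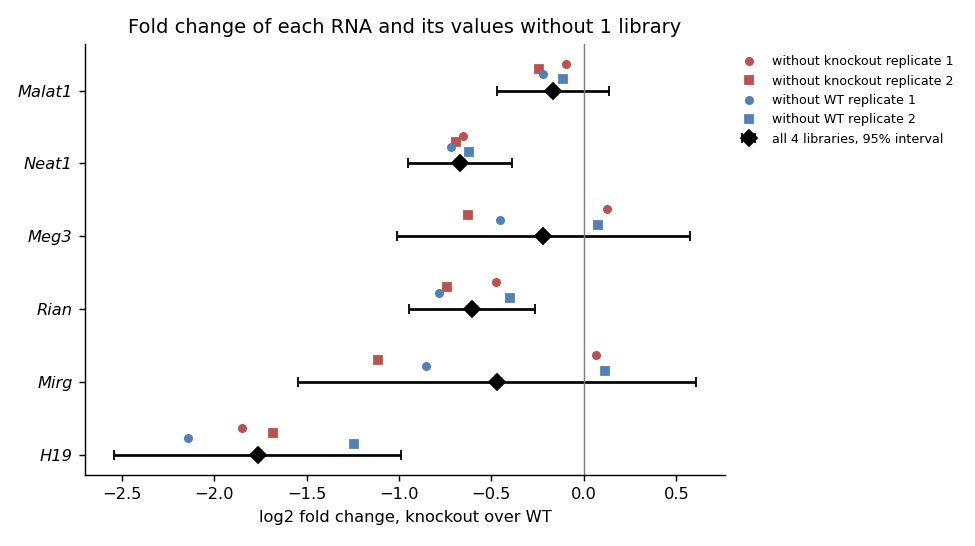
Log2 fold change, knockout over WT, of each RNA with its 95% interval (black diamond, all 4 libraries) and the values with 1 library left out (red, a knockout library; blue, a WT library). Neat1 values stay between −0.72 and −0.62 and H19 values between −2.14 and −1.24, while Meg3 and Mirg values fall on both sides of 0.

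No tested neighbour of H19 was called. Igf2 had 5 and 2 counts in the knockout libraries and 2 and 6 counts in the WT libraries, so the partner gene could not be compared. Within 500 kb 11 further genes were tested, with log2 fold changes from −0.22 to 0.60 and a median of −0.06. Nctc1, a muscle-expressed noncoding RNA from the enhancer side of H19, averaged 79.8 ± 18.2 CPM in the knockout and 68.9 ± 14.0 CPM in WT (SD, n = 2 each; edgeR adjusted p = 0.691). The fast troponin gene Tnnt3 averaged 9025 ± 375 CPM in the knockout and 9399 ± 478 CPM in WT. Mrpl23, a mitochondrial ribosomal protein gene, averaged 28.0 ± 2.21 CPM in the knockout and 26.0 ± 3.32 CPM in WT, and Lsp1, an actin-binding protein of leukocytes, averaged 42.0 ± 0.11 CPM in the knockout and 44.7 ± 9.31 CPM in WT. Of the 12 genes listed for both imprinted domains 5 were tested, none was called and their median was −0.06.

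**Figure D4:**
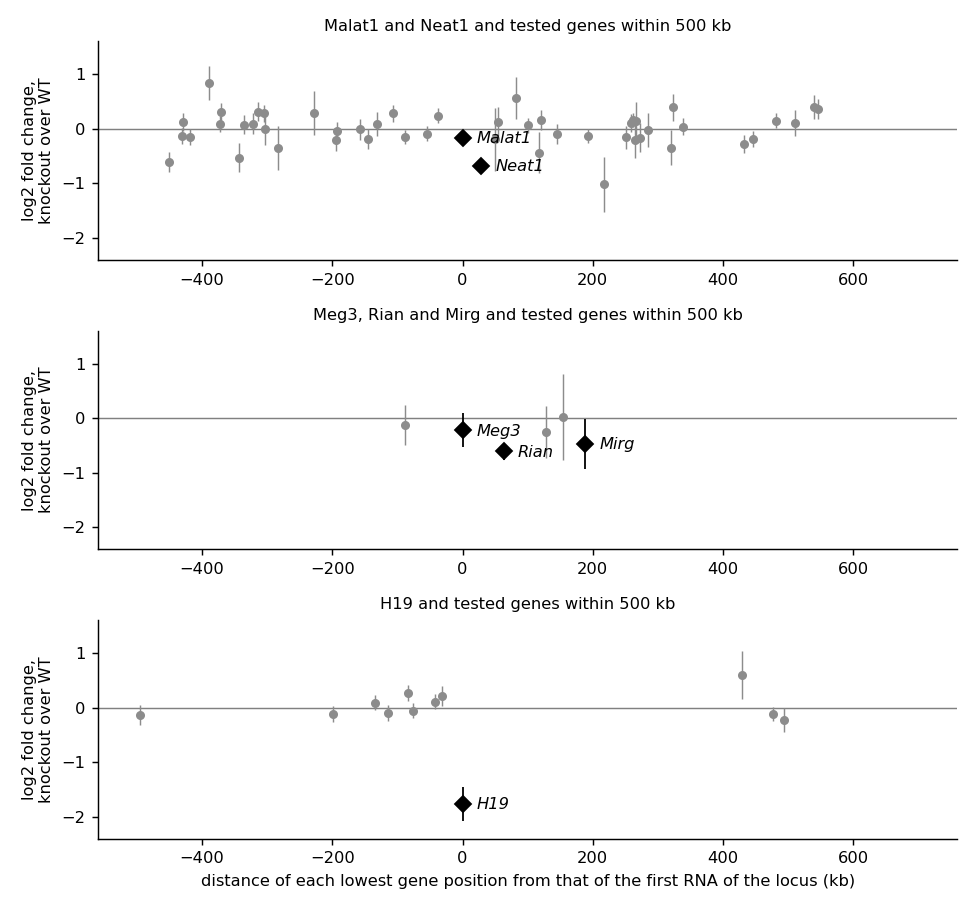
Log2 fold change, knockout over WT (1 SE as a bar), of the described RNAs (black diamonds) and of the tested genes within 500 kb (grey circles), against distance in kb along the chromosome. H19 at −1.76 and Neat1 at −0.67 have 0 and 1 grey points below them in their panels, 1 grey point above 0 lies farther out than Neat1, and no grey point was called.

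Levels can be set against each other only per length, here as CPM per kb of exons. Malat1 averaged 376 CPM per kb in the knockout and 422 CPM per kb in WT. H19 came to 134 and 120 CPM per kb in the knockout libraries, against 300 and 561 CPM per kb in the WT libraries. Malat1 itself was at 356 and 396 CPM per kb in the knockout libraries and 406 and 439 CPM per kb in the WT libraries. By merged length H19 was below Malat1 in both knockout libraries and in WT replicate 1 and above it in WT replicate 2. Neat1 followed at 8.53 CPM per kb in the knockout and 13.6 CPM per kb in WT, Rian at 1.84 in the knockout and 2.79 in WT, Meg3 at 1.32 in the knockout and 1.52 in WT, and Mirg at 0.471 in the knockout and 0.615 in WT. By merged length Rian lay above Meg3 and Meg3 above Mirg in each of the 4 libraries. Annotated transcripts run from 421 to 14548 bases for Meg3 and from 294 to 8089 bases for Rian, so this order may differ by isoform. Because many isoforms are annotated, the exon lengths are those of all isoforms merged, and a level per kb is then a lower estimate for an RNA made mostly as a shorter isoform. Over the 1217 bases of 1 of its 7 transcripts, in place of the merged 2460, H19 would come to 270 and 243 CPM per kb in the knockout libraries and 607 and 1135 CPM per kb in the WT libraries. Over the 761 bases of another transcript it would come to 432 CPM per kb in knockout replicate 1, above Malat1 there. Its order against Malat1 in knockout replicate 1 and in WT replicate 1 thus depends on the isoform, which these counts do not give.

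The small RNAs inside these RNAs gave almost no counts. On the same strand 40 annotated genes lie inside the 6 RNAs, 21 for microRNAs, 13 for small nucleolar RNAs and 6 of other kinds. Of the 20 inside host exons 0 had a count. Genes so placed can hardly be measured with these counts. Over the whole genome a count was found for 1 of 740 that lie entirely beneath exons of their own strand, against 123 of 469 beneath exons of the other strand. The labels name the kit in 2 ways, and 1 of these names is a kit that does not mark strand, so the separation of strands rests on these counts alone. Of the other 20 genes 11 had a count, at most 4 counts each. Their sum was 15 and 6 counts in the knockout libraries and 14 and 9 counts in the WT libraries. Mir675, in the H19 exon, had 0 counts in all 4 libraries, so these data say nothing of the miR-675 sequences printed above, nor of whether they follow their host. Genes on the strand opposite the 6 RNAs reached at most 2 counts in a library.

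Of 47 imprinted genes outside both domains 33 were tested. Of these 1 was called lower and none higher, against 0.558% of all tested genes called lower. The median log2 fold change of the 33 was −0.06. The called gene was Cdkn1c, the maternally expressed cyclin-dependent kinase inhibitor p57, which like H19 lies at the distal end of chromosome 7. Cdkn1c had 17.3 and 14.2 CPM in the knockout libraries, against 28.6 and 41.3 CPM in the WT libraries. As for H19, both knockout libraries were lower and WT replicate 2 was the highest. Cdkn1c averaged 15.8 ± 2.17 CPM in the knockout and 34.9 ± 8.95 CPM in WT (SD, n = 2 each), a log2 fold change of −1.14 ± 0.18 (SE; edgeR adjusted p = 0.00710), and it was called under each of the 15 alternatives run. Grb10, an adaptor that restrains insulin receptor signalling, had 56.9 and 61.1 CPM in the knockout libraries, against 75.5 and 103 CPM in the WT libraries. Its log2 fold change was −0.60 ± 0.15 (SE; edgeR adjusted p = 0.0720), and DESeq2 called it (adjusted p = 0.0283). Without WT replicate 2 the fold change was −0.36 (edgeR adjusted p = 0.374), and without WT replicate 1 it was −0.80 (adjusted p = 0.00409). Slc22a3, an organic cation transporter, lay on the other side, with 3.52 and 3.15 CPM in the knockout libraries and 1.23 and 1.40 CPM in the WT libraries (log2 fold change 1.34 ± 0.33, SE; edgeR adjusted p = 0.0646).

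A split by the allele known to be active in mouse, for some genes in some tissues only, was added after these values were seen. Of 9 tested genes expressed from the maternal allele, the described RNAs left out, 1 was called lower, Cdkn1c again. Of all tested genes 0.558% were called lower. The median log2 fold change of the 9 was −0.06. The 16 tested genes expressed from the paternal allele had 0 called and the same median of −0.06. Kcnq1ot1, the paternal antisense RNA of the Cdkn1c domain, averaged 48.1 ± 5.54 CPM in the knockout and 58.6 ± 12.1 CPM in WT (SD, n = 2 each; edgeR adjusted p = 0.471). Igf2r, the maternally expressed receptor that clears the Igf2 protein, averaged 77.6 ± 11.7 CPM in the knockout and 89.2 ± 1.22 CPM in WT.

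**Figure D5:**
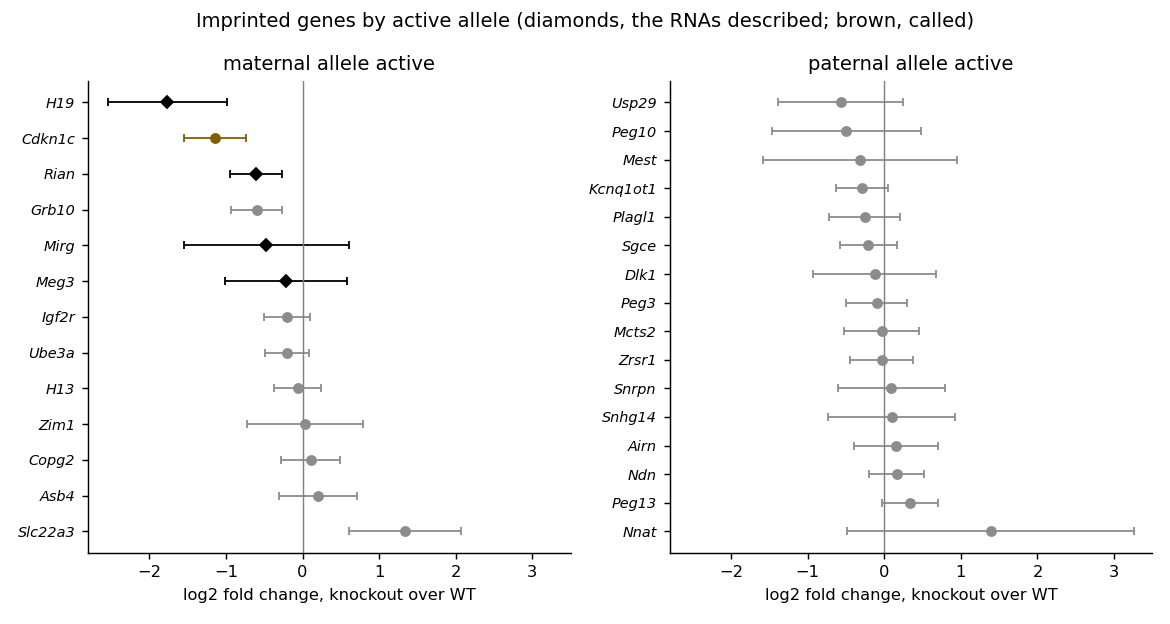
Log2 fold change, knockout over WT, with its 95% interval for tested imprinted genes by active allele (black diamonds, H19, Rian, Mirg and Meg3; brown, called; grey, other genes). H19 at −1.76 and Cdkn1c at −1.14 have the lowest values among the maternal genes plotted, Slc22a3 at 1.34 the highest, and no paternal gene is called.

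The enzymes and complexes that keep imprints and place Polycomb marks showed no called gene among 19 tested of 21 listed, and a median log2 fold change of −0.02. Eed, a core subunit of Polycomb repressive complex 2, averaged 9.41 ± 1.49 CPM in the knockout and 12.8 ± 0.91 CPM in WT (SD, n = 2 each; edgeR adjusted p = 0.284). Smc1a, an X-linked cohesin subunit, averaged 26.1 ± 1.40 CPM in the knockout and 21.5 ± 2.44 CPM in WT. Dnmt3a, a de novo DNA methyltransferase, averaged 41.2 ± 0.68 CPM in the knockout and 45.4 ± 0.44 CPM in WT.

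Of 37 tested genes on a list of other long noncoding RNAs 3 were called lower and none higher. Of all 488 long noncoding genes tested 1.43% were called lower, and the list was written with earlier results of these data known. The median log2 fold change of the list was −0.08, close to the median of −0.08 over all 488. The 3 called were Xist, given above, 1 predicted gene, and 2310001H17Rik. The last had 9.36 and 8.95 CPM in the knockout libraries, against 19.3 and 13.3 CPM in the WT libraries (edgeR adjusted p = 0.0498), and its call was lost under 10 of 15 alternatives, with adjusted p from 0.0502 to 0.377. Its log2 fold change of −0.82 with all libraries became −0.53 when WT replicate 1 was left out. Among 13 tested structural noncoding RNAs none was called. Their median log2 fold change was 0.11, and it was 2.60 without WT replicate 2. Their levels differed so much between the WT libraries, as for the minor spliceosome RNA Rnu12 with 147 and 81 counts in the knockout libraries and 12 and 644 counts in the WT libraries, that no comparison could be drawn.

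For each RNA the 3 genes with the nearest profile over the 4 libraries were listed, among 6289 genes with a mean of at least 10 CPM. The measure is the root mean square distance of log2 CPM values, each centred on its own mean. It is a description over 4 points that share libraries and depth, and the knockout contrast is part of it. Neat1 lay nearest to Fsd1l (distance 0.028), to Eif2s3x (0.031), an X-linked subunit of translation initiation factor 2 that escapes X inactivation, and to Nexn (0.034), an actin-binding protein of the Z-disc. All 3 were called lower. Nexn had 51.2 and 50.1 CPM in the knockout libraries, against 76.0 and 80.8 CPM in the WT libraries, and Eif2s3x had 30.3 and 29.8 CPM in the knockout libraries, against 46.0 and 48.0 CPM in the WT libraries. Both show the tight pairs seen for Neat1, which, like the lower calls, the choice by nearest profile favours.

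The genes nearest to H19 lay farther off, namely the matrix protein gene Mfap4 (distance 0.264), the Hsp110 chaperone gene Hspa4l (0.317) and Cdkn1c (0.318). All 3 were called lower, which the choice by nearest profile favours. Mfap4 had 10.3 and 8.27 CPM in the knockout libraries, against 21.3 and 27.1 CPM in the WT libraries. Rian lay nearest to Cd93 (0.036), a receptor of endothelial cells, to the glycogen-binding protein gene Stbd1 (0.040) and to Nes (0.055), the intermediate filament nestin. Cd93 had 34.9 and 44.4 CPM in the knockout libraries, against 50.04 and 68.3 CPM in the WT libraries. None of these 3 was called, and of 6 endothelial markers none was called, with summed levels of 146 to 157 CPM in the knockout libraries and 157 to 179 CPM in the WT libraries. Their part in the Rian difference was not tested. Malat1 lay nearest to Spast (0.0057), Derl2 (0.012) and Rbfox2 (0.012), and Meg3 to Loxl1 (0.060), Rftn1 (0.064) and AC149090.1 (0.077). Mirg lay nearest to Meg3 (0.218) and Col15a1 (0.218), and then to Gamt (0.248). Meg3 and Col15a1 were equally near as printed, for an RNA of 32 to 76 counts a library. Rian, of the same domain, was not among these 3.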

How the data were processed

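The authors deposited raw read counts for each Ensembl gene, in 1 column per library. The submitters' processing notes name Trimmomatic, STAR, DESeq2 and GRCm38 (mm10). No version, setting or annotation release is given in the sources used here. Symbols, coordinates and exon lengths came from GENCODE M21, which matched 55480 of 55573 IDs. The 6 RNAs and all lists were chosen with earlier results of these data known.

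Genes were kept with edgeR 4.0.16 filterByExpr (minimum count 10, minimum total 15), scaled with TMM, the trimmed mean of M values (factors 0.9797 to 1.0485) and tested for genotype alone with glmQLFit (robust) and glmQLFTest in R 4.3.3, with p-values adjusted by Benjamini-Hochberg over 13076 genes. This called 323 genes, 250 higher and 73 lower, and 1836 had an unadjusted p below 0.05. Standard errors were derived from the F statistic. The common biological coefficient of variation was 13.59%. Libraries of a group differed beyond counting noise (chi-square per degree of freedom 12.5 in the knockout, 8.04 in WT), and 3 counts equal 0.141 to 0.278 CPM. The fit was tested on simulated data. DESeq2 1.42.0, other scalings and filters, and leaving out each library were alternatives. From each list the text names the 3 members of lowest p, plus called ones to a total of 6, and counts predicted genes only. The allele split, a fit without X-linked and Y-linked genes, crossed replicate numbers and the strand check were added after the data were seen.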

Additional observations from a re-analysis of the deposited data

How the results depend on the processing

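Under 11 alternatives that kept all 4 libraries (scaling, filters, robustness, tool, block, sex-linked genes left out) all 6 RNAs kept a negative fold change and Neat1 kept its call (adjusted p from 1.78e-05 to 0.0342). With no filter on low counts 720 genes were called in place of 323, 530 higher and 190 lower. H19 was then called at −1.75, and Rian at −0.60. H19 was also called at −1.76 without robust estimation (adjusted p = 0.0125) and at −1.76 by DESeq2. Leaving out 1 library gave 223 to 415 called genes, and log2 fold changes of −0.72 to −0.62 for Neat1, −0.78 to −0.40 for Rian, −2.14 to −1.24 for H19, −0.63 to 0.12 for Meg3, −1.11 to 0.11 for Mirg and −0.24 to −0.10 for Malat1. Signs were followed only for the 6 RNAs and for the genes named by lowest p from the lists. Among these, the signs that turned were those of Meg3 and Mirg, as given above, and of 4 other genes. With 1 library left out Nctc1 lay between −0.048 and 0.44, Mrpl23 between −0.016 and 0.25, Lsp1 between −0.29 and 0.14, and Rnu12 between −2.85 and 2.60. The cause was not tested.

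Replicate numbers 1 and 2 recur in both groups. Deviations of same-numbered libraries from their group means correlated at 0.039 over the tested genes, so the numbers were not taken to pair the libraries. With the replicate number as a block 314 genes were called, and Rian was called at −0.59 (adjusted p = 0.0459). With the numbers crossed 395 genes were called, H19 among them at −1.70 (adjusted p = 0.000631). Mirg had the fewest counts, 32 to 76 a library.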
